A study of Mus musculus with 16 samples.

Results

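The 9 genes that encode the exon junction complex (EJC) and its direct partners were followed in brain RNA from mice that lack Upf3b. They were listed by their known place in the complex: Eif4a3, Rbm8a, Magoh and Magohb for the core, Casc3 for the outer core factor, Rnps1, Acin1 and Sap18 for the peripheral subunits, and Pym1 for the factor that takes the complex apart. These 9 genes were among 55266 genes in the count tables, and they held 71 of the 142435 transcripts. The annotation lists 182 transcripts for them, and those outside the count tables are not analysed here. Of the 71 transcripts, 34 are annotated as protein coding, 20 as retained introns and 3 as targets of nonsense-mediated decay, and 4 were at 0 in every library used.

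The EJC is a protein clamp that the spliceosome leaves on an mRNA just upstream of each exon junction. Eif4a3 is a DEAD-box RNA helicase that grips the RNA, and the heterodimer of Rbm8a (Y14) with Magoh or its paralog Magohb locks that grip. The mark travels with the mRNA to the cytoplasm, where ribosomes normally strip it off. A complex that stays behind downstream of a stop codon is recognised through Upf3b and other factors, and the mRNA is then degraded by nonsense-mediated mRNA decay (NMD), a route used in brain both for quality control and to set the level of normal transcripts.

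The samples were frontal cortex (FC) and cerebellum (Cere) from adult mice null for the X-linked gene Upf3b (Upf3b-KO) and from littermate controls (Ctrl), whose strain and exact age are not given in the sources used here. Each of the 4 groups had 4 libraries made from total RNA after removal of ribosomal RNA. By the study's account 4 mice of each genotype gave both regions, but the labels do not tie a library to a mouse, so tests across the regions treat libraries as independent and p-values measure the spread between libraries. The series asks which RNAs depend on Upf3b in each region, and the comparisons below put that question to the EJC genes themselves. Values per library are given in CPM, counts scaled to the same library total.

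The total count was 30342874 to 34501210 in the FC libraries and 27660078 to 35238677 in the 7 cerebellar libraries used. The library labelled Cere Upf3b-KO replicate 1 held only 64981 counts and was left out, which leaves 15 of 16 libraries. Upf3b, the targeted gene, was at 14.2 to 15.7 CPM in FC Ctrl and at 0.229 to 0.857 CPM in FC Upf3b-KO, and at 20.9 to 23.6 against 0.617 to 0.965 CPM in cerebellum. Marker genes of other cells differed with genotype. The 6 choroid plexus markers summed to 17.6 to 18.7 CPM in FC Ctrl and 2130 to 2190 CPM in FC Upf3b-KO, and to 22 to 25.4 against 1360 to 1390 CPM in cerebellum, each of the 6 being more than 2-fold higher in both regions. The 6 striatal markers summed to 136 to 145 CPM in FC Ctrl and 706 to 717 CPM in FC Upf3b-KO, with all 6 more than 2-fold higher, and to 365 to 378 against 314 to 324 CPM in cerebellum, where 2 of the 6 were more than 2-fold higher although the sum was lower. The 5 cerebellar granule and Purkinje markers summed to 4240 to 4330 CPM in Cere Ctrl and 1820 to 1830 CPM in Cere Upf3b-KO, and the 5 cortical neuron markers to 1510 to 1570 against 1430 to 1440 CPM in FC and 480 to 500 against 310 to 319 CPM in cerebellum. The 10 male germ cell markers summed to 28.6 to 31.6 against 195 to 202 CPM in FC, 9 of 10 being more than 2-fold higher. In cerebellum they summed to 30.4 to 31.9 against 23.1 to 24.9 CPM, although 6 of the 8 tested were more than 2-fold higher. No marker was at 0 in all libraries. The part of this change in tissue makeup in the results below was not tested, and in bulk tissue fewer cells of a type and less RNA per cell cannot be told apart.

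To compare genes of different length, levels were also expressed in TPM, which divides each count by transcript length. In both Ctrl tissues Sap18, a small subunit first known from histone deacetylase complexes, stood highest, at 129 ± 18 TPM (SD, n = 4) in FC and 152 ± 11 TPM in cerebellum. Rnps1, a splicing regulator of the same peripheral subcomplex, followed at 120 ± 2 and 123 ± 2.2 TPM. Eif4a3 came next, at 95 ± 3.7 and 116 ± 2.1 TPM, and its core partner Rbm8a lay below it at 62.6 ± 3.1 and 77 ± 5.9 TPM. Magoh was at 46 ± 4.8 TPM in FC and 49 ± 6.1 TPM in cerebellum, whereas its paralog Magohb was at 20.2 ± 3 and 21.8 ± 2 TPM. Casc3, the large and mainly cytoplasmic core factor that stabilises the clamp, was at 38.6 ± 1.1 and 56.9 ± 1.6 TPM. Acin1, a long scaffold protein that binds Rnps1 and Sap18, was at 24.7 ± 2.5 and 41.3 ± 4.6 TPM, and Pym1, which removes the clamp from the mRNA at the ribosome, was lowest at 17.9 ± 2.3 and 19.7 ± 1.3 TPM.

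**Figure D1:**
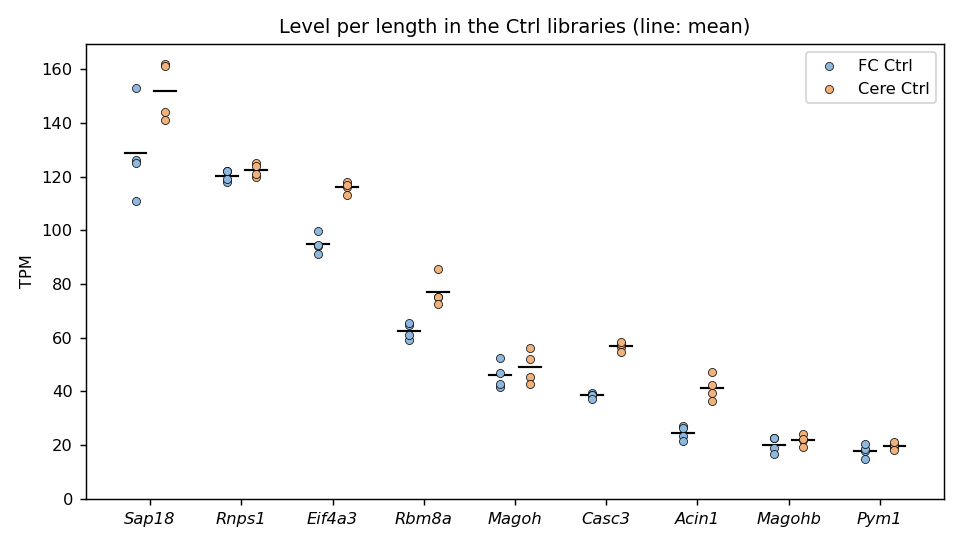
TPM (vertical axis, linear, from 0) of each EJC gene in every FC Ctrl (blue) and Cere Ctrl (orange) library, with a line at the mean. Sap18 and Rnps1 lie at the top and Pym1 at the bottom in both tissues, and the cerebellar points of Casc3 and Acin1 lie above their FC points.

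Not every step in this order exceeded the spread. In FC Ctrl the libraries of Sap18 (111 to 153 TPM) overlapped those of Rnps1 (118 to 122 TPM), those of Acin1 (21.7 to 27.2 TPM) overlapped those of Magohb (16.6 to 22.7 TPM), and those of Magohb overlapped those of Pym1 (14.9 to 20.3 TPM). In Cere Ctrl the overlapping neighbours were Casc3 (54.8 to 58.5 TPM) with Magoh (42.7 to 56 TPM), Magoh with Acin1 (36.3 to 47.1 TPM), and Magohb (19.2 to 24.1 TPM) with Pym1 (18.1 to 21.2 TPM). The order was the same in Upf3b-KO as in Ctrl within each tissue, with Magoh above Casc3 in FC and below it in cerebellum. The level of Sap18 also rests on how reads were divided between it and its near copy Sap18b. That copy was at 149 ± 15 TPM in FC Ctrl and 158 ± 7.4 TPM in Cere Ctrl.

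The 2 Ctrl tissues were then compared gene by gene with edgeR's quasi-likelihood test, adjusted by Benjamini-Hochberg over all genes tested. Of the 9 genes, 6 differed at an adjusted p under 0.05, 5 of them higher in cerebellum, in a comparison in which 73.1% of all genes tested were called, 35.8% higher in cerebellum and 37.3% lower. None was past a 2-fold difference at an adjusted p under 0.01, as 25.5% of all genes were. Acin1 showed the widest gap, with 26.3 to 29.5 CPM in the FC Ctrl libraries and 49.2 to 51.1 CPM in the Cere Ctrl libraries, a log2 difference of 0.81 (SE 0.038, adjusted p = 3.19e-16). Casc3 was at 58.4 to 60.7 CPM in FC Ctrl and 81.7 to 86.5 CPM in Cere Ctrl (log2 difference 0.47, SE 0.03, adjusted p = 2.24e-13). Neither gene had overlapping groups, as 66.5% of all genes had not. Eif4a3 (log2 difference 0.23), Rbm8a (0.23) and Sap18 (0.21) were also higher in cerebellum, with adjusted p of 8.36e-06, 3.75e-07 and 6.59e-05, while Rnps1 was lower by a log2 difference of -0.07 (adjusted p = 0.00392), a call lost with scaling to library totals alone (adjusted p = 0.06). Magoh, Magohb and Pym1 had log2 differences of 0.00, 0.07 and 0.05 and did not pass the test. The median over the 9 genes was 0.211 on the log2 scale, against -0.0252 over all genes tested.

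In FC, loss of Upf3b went with small shifts of single EJC genes in both directions. Acin1 rose by 11.6%, whereas Rnps1 fell by 11.3%, Sap18 fell by 12.8%, Rbm8a fell by 6.46% and Magohb fell by 20.8%. Thus 5 of the 9 genes passed an adjusted p under 0.05, 1 higher and 4 lower, where 53.3% of all genes tested were called, 28.0% higher and 25.3% lower. None passed the stricter limits of the study, an adjusted p under 0.01 with more than a 2-fold change, which 10.2% of all genes met. All 9 moved by less than 1.5-fold, 6 were under an unadjusted p of 0.05, and DESeq2 called 5 at an adjusted p under 0.05, 1 higher and 4 lower. The median log2 fold change was -0.1087 over the 9 genes and 0.0037 over all genes. These fold changes are fitted after TMM scaling, which treats the bulk of genes as constant and which in FC set the Upf3b-KO libraries 5.4% apart from the Ctrl libraries, so a ratio of CPM values lies about 0.0758 above the fitted log2 fold change. With library totals alone the calls were 2 higher (Acin1 and Casc3) and 2 lower (Rnps1 and Sap18), while Rbm8a (adjusted p = 0.579) and Magohb (adjusted p = 0.0791) were not called.

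**Figure D2:**
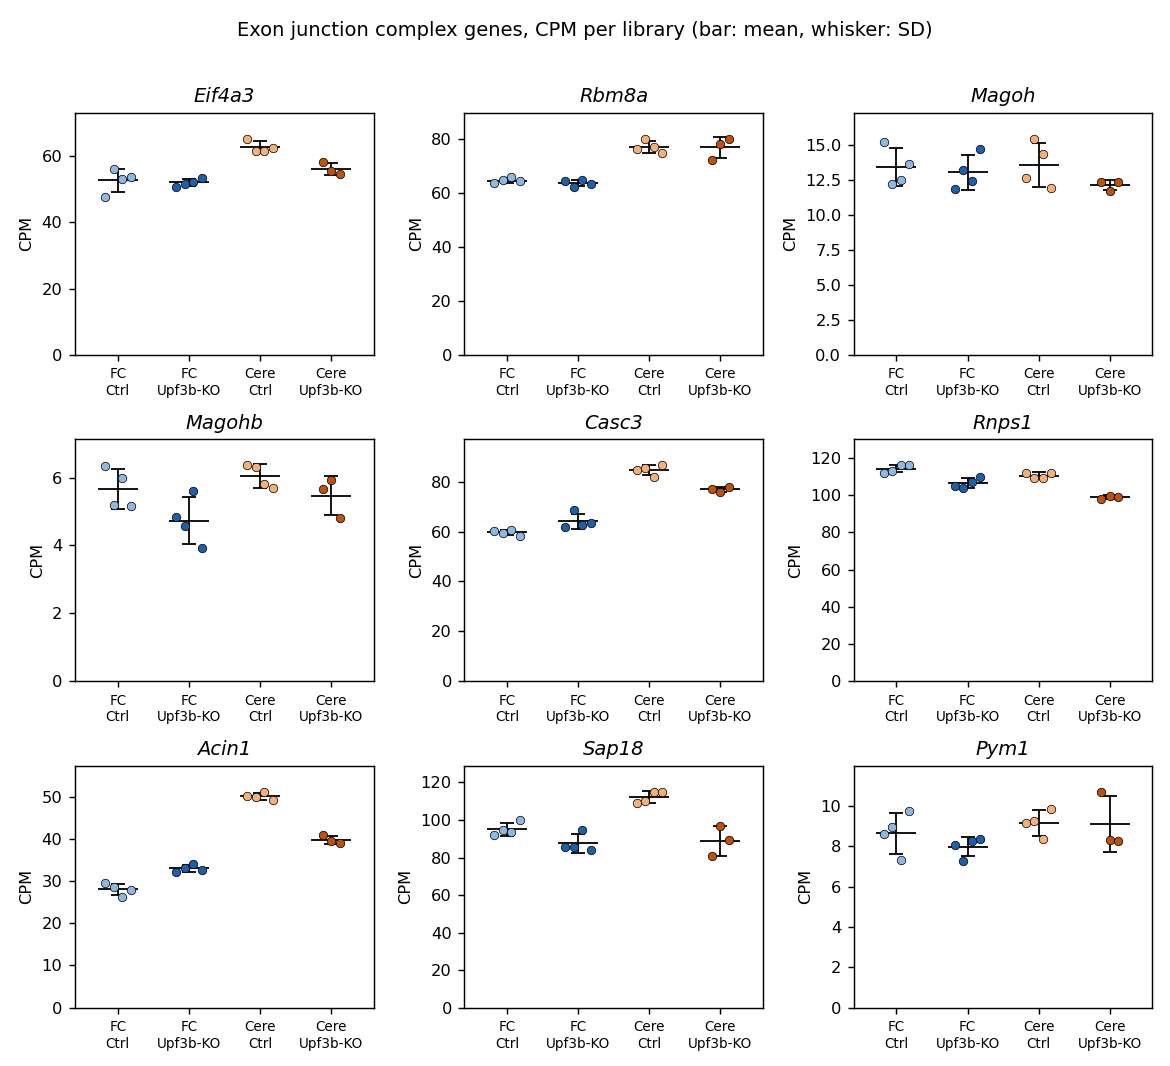
CPM (vertical axes, linear, from 0) of each EJC gene in every library used, by group, with the mean and SD. FC Ctrl, FC Upf3b-KO and Cere Ctrl have 4 points and Cere Upf3b-KO has 3. The Acin1 points of FC Upf3b-KO sit above those of FC Ctrl, and those of Cere Upf3b-KO sit below those of Cere Ctrl.

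Acin1 (ENSMUSG00000022185, GRCm39 chr14:54879618-54924427, minus strand) was at 29.5, 28.6, 26.3 and 27.8 CPM in the FC Ctrl libraries and at 32.2, 33.1, 34.1 and 32.7 CPM in the FC Upf3b-KO libraries, with a fitted log2 fold change of 0.16 (SE 0.045, adjusted p = 0.00507). Rnps1 (ENSMUSG00000034681, chr17:24633504-24645325, plus strand) was at 112, 113, 116 and 116 CPM in Ctrl and at 104 to 110 CPM in Upf3b-KO (log2 fold change -0.17, SE 0.024, adjusted p = 3.23e-06). Both genes, and Casc3, had FC groups that did not overlap in CPM, as 48.4% of all genes tested did. Sap18 (ENSMUSG00000021963, chr14:58035614-58044095, plus strand) was at 92.1, 94.7, 93.4 and 100 CPM in Ctrl and 85.7, 85.6, 94.9 and 83.8 CPM in Upf3b-KO. Of the 4 knockout libraries of Sap18, replicates 1, 2 and 4 lay below every Ctrl library and replicate 3 lay among them (log2 fold change -0.20, SE 0.035, adjusted p = 5.79e-05). These 3 genes encode the peripheral subunits that together form the ASAP complex, and in FC they did not share a direction.

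Within the core trimer, Eif4a3 (ENSMUSG00000025580, chr11:119177570-119190933, minus strand) was at 47.7, 56.2, 53.1 and 53.6 CPM in FC Ctrl and 50.8, 51.7, 52.2 and 53.5 CPM in FC Upf3b-KO. Its groups overlapped, and its log2 fold change of -0.09 (SE 0.041) had an adjusted p of 0.0625, which came to 0.00265 without FC Ctrl replicate 1, the lowest library. Rbm8a (ENSMUSG00000038374, chr3:96537204-96541116, plus strand) was at 63.7 to 65.9 CPM in Ctrl and 62.5 to 65.1 CPM in Upf3b-KO, groups that overlapped in CPM, with a fitted log2 fold change of -0.10 (SE 0.029, adjusted p = 0.00712). Magoh (ENSMUSG00000028609, chr4:107736943-107744621, plus strand) was at 12.2 to 15.2 CPM in Ctrl and 11.8 to 14.7 CPM in Upf3b-KO, with a log2 fold change of -0.11 (SE 0.084, adjusted p = 0.295). Magohb (ENSMUSG00000030188, chr6:131261351-131270215, minus strand) was at 6.33, 5.18, 6 and 5.15 CPM in Ctrl and 4.85, 4.57, 5.6 and 3.92 CPM in Upf3b-KO. Its groups overlapped through replicate 3 of Upf3b-KO, and its log2 fold change of -0.34 (SE 0.12, adjusted p = 0.0245) was no longer called without FC Ctrl replicate 1 (adjusted p = 0.0846), FC Ctrl replicate 3 (0.0585), FC Upf3b-KO replicate 2 (0.0577) or FC Upf3b-KO replicate 4 (0.0996).

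Casc3 (ENSMUSG00000078676, chr11:98695731-98724640, plus strand) was at 60.3, 59.5, 60.7 and 58.4 CPM in FC Ctrl and 62, 68.6, 62.6 and 63.5 CPM in FC Upf3b-KO. Every knockout library was thus above every Ctrl library in CPM, but the fitted log2 fold change was 0.03 (SE 0.034, adjusted p = 0.535), and with library totals alone it was 0.10 (adjusted p = 0.014). Without FC Upf3b-KO replicate 2 the fitted value was -0.01 (adjusted p = 0.88). Pym1 (ENSMUSG00000064030, chr10:128583658-128602443, plus strand) was at 7.3 to 9.74 CPM in Ctrl and 7.29 to 8.36 CPM in Upf3b-KO (log2 fold change -0.19, SE 0.096, adjusted p = 0.103). It was called only without FC Ctrl replicate 3, its lowest Ctrl library (adjusted p = 0.0191).

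In cerebellum, by contrast, every EJC gene that passed the test fell. Acin1 and Sap18 each fell by 23.3%, Eif4a3 fell by 13.8%, Magoh fell by 13.7%, Rnps1 fell by 13.4% and Casc3 fell by 12%. These were 6 of the 9 genes, where 64.4% of all genes tested were called, 33.1% higher and 31.3% lower. The other 3 genes had fitted values below 0 that did not pass, that of Pym1 turning to 0.0015 without Cere Upf3b-KO replicate 3 and 0.0021 without replicate 4, and the median log2 fold change was -0.2071 over the 9 genes against 0.0077 over all genes. None met the stricter limits, as 13.2% of all genes did, while 6 were under an unadjusted p of 0.05 and DESeq2 called 5 at an adjusted p under 0.05, all lower. With library totals alone, 5 were lower and Magoh was not called.

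Acin1 was at 50.1, 49.8, 51.1 and 49.2 CPM in the Cere Ctrl libraries and at 40.9, 39.4 and 39.1 CPM in the 3 Cere Upf3b-KO libraries (log2 fold change -0.38, SE 0.037, adjusted p = 3.02e-08). Sap18 was at 109, 110, 115 and 115 CPM against 80.9, 96.7 and 89.4 CPM (log2 fold change -0.38, SE 0.043, adjusted p = 2.45e-07). Rnps1 was at 112, 109, 109 and 112 CPM against 98.1, 99.8 and 99.2 CPM (log2 fold change -0.21, SE 0.025, adjusted p = 6.69e-07). All 3 ASAP subunits were thus lower in every knockout library than in every Ctrl library of cerebellum, as were Eif4a3 and Casc3, which makes 5 of 9 genes where 63.4% of all genes had groups that did not overlap.

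Eif4a3 was at 65.2, 61.5, 61.6 and 62.6 CPM in Cere Ctrl and 58.1, 55.5 and 54.5 CPM in Cere Upf3b-KO (log2 fold change -0.21, SE 0.035, adjusted p = 2.83e-05). Casc3 was at 84.6, 85.4, 81.7 and 86.5 CPM against 77.1, 75.9 and 77.9 CPM (log2 fold change -0.19, SE 0.03, adjusted p = 2.11e-05). The partners that lock Eif4a3 on RNA moved less clearly. Rbm8a was at 74.9 to 80.1 CPM in Ctrl and 72.5 to 80.2 CPM in Upf3b-KO (log2 fold change -0.05, SE 0.036, adjusted p = 0.218). Magoh was at 12.6, 15.4, 14.3 and 11.9 CPM against 12.3, 11.7 and 12.3 CPM, groups that overlapped, with a log2 fold change of -0.21 (SE 0.09, adjusted p = 0.0462). That call was lost in 9 of 17 alternatives, among them leaving out Cere Ctrl replicate 2 (adjusted p = 0.157) or replicate 3 (0.106) and Cere Upf3b-KO replicate 2 (0.0792), 3 (0.12) or 4 (0.0768), and DESeq2 (0.0552). Magohb was at 5.68 to 6.36 CPM against 4.82 to 5.93 CPM (log2 fold change -0.20, SE 0.11, adjusted p = 0.141), and Pym1 at 8.35 to 9.87 against 8.28 to 10.7 CPM (log2 fold change -0.06, SE 0.11, adjusted p = 0.643).

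**Figure D3:**
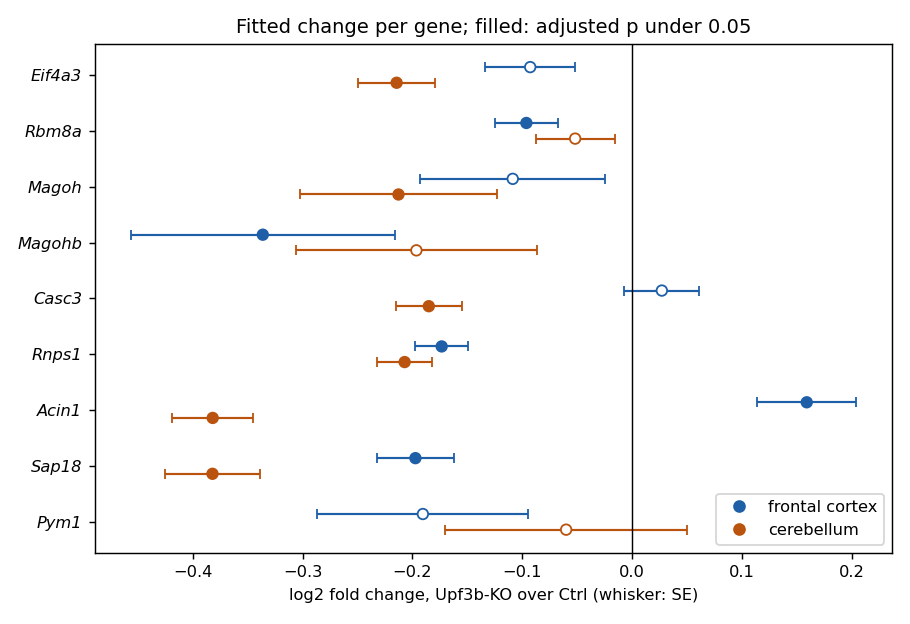
Fitted log2 fold change of Upf3b-KO over Ctrl (horizontal axis) for each EJC gene in FC (blue) and cerebellum (orange), with whiskers of 1 SE and filled points where the adjusted p is under 0.05. Cerebellar values all lie below 0, and Acin1 lies above 0 in FC (0.16) and below 0 in cerebellum (-0.38).

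The difference between the tissues was tested itself, as the interaction of tissue and genotype in a fit of all 15 libraries. At an adjusted p under 0.05, 3 of the 9 genes passed, where 48.0% of all genes tested did, and in each the cerebellar change was the lower, as it was for 23.8% of all genes. None had a difference past 2-fold at an adjusted p under 0.01, as 9.40% of all genes had, while 4 were under an unadjusted p of 0.05 and DESeq2 called 4 at an adjusted p under 0.05. For Acin1 the cerebellar log2 fold change was below that in FC by a difference of -0.55 (SE 0.056, adjusted p = 6.44e-09). For Casc3 the difference was -0.22 (SE 0.045, adjusted p = 0.000167) and for Sap18 -0.20 (SE 0.062, adjusted p = 0.0109). With its near copy Sap18b added, the Sap18 difference was -0.11 (adjusted p = 0.00964), and that of Sap18b alone was 0.06 (adjusted p = 0.59). The Sap18 call was lost without Cere Upf3b-KO replicate 2, its lowest library (difference -0.11, adjusted p = 0.111), and the Acin1 and Casc3 calls held in the 24 alternatives tried for each. Eif4a3 came near the threshold (difference -0.13, SE 0.056, adjusted p = 0.0557) and passed it in 7 of 24 alternatives. For Rbm8a, Magoh, Magohb, Rnps1 and Pym1 the differences ran from -0.11 to 0.13 with adjusted p of 0.288 to 0.584. Acin1 was at 33 ± 0.81 CPM (SD, n = 4) in FC Upf3b-KO and 39.8 ± 0.96 CPM (n = 3) in Cere Upf3b-KO.

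The files give an estimated count for each transcript, so isoforms of the EJC genes could be compared too. Of the 71 transcripts, 33 passed the count filter in FC, 35 in cerebellum and 36 in either, and 39 passed it in the fit of all 15 libraries. In FC 3 of 33 changed at an adjusted p under 0.05, all lower, where 16.4% of all transcripts tested were called and 7.68% were called lower. In cerebellum 6 of 35 changed, 5 lower and 1 higher, where 22.6% of all transcripts were called, 10.3% lower and 12.3% higher. Between the Ctrl tissues 6 of 39 differed (33.8% of all transcripts), and the interaction was called for 2 of 39 (13.3% of all transcripts). A test of each transcript's share of its gene called 0 of 32 in FC and 0 of 34 in cerebellum with edgeR, where 0.860% and 1.25% of all shares were called, with 1 and 3 under an unadjusted p of 0.05. No other tool was run for shares. Where groups of a transcript or isoform share are said below not to overlap, this describes those libraries only. The percentage of all transcripts without overlap is not given here. Among genes it was 48.4% in FC and 63.4% in cerebellum.

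Among the 71 transcripts counted, only isoforms of Magohb had an annotated stop codon 50 nt or more before the final exon junction. This placement leaves an EJC behind a terminating ribosome. Transcripts without a complete annotated stop codon, among them every retained-intron one, could not be judged. The annotated transcripts outside the 71 were not examined. The full-length Magohb transcript ENSMUST00000032307 joins exon 1 to exon 2. ENSMUST00000173198 places an extra exon of 200 nt between them (GRCm39 chr6:131268704-131268903, minus strand), with its stop codon inside that exon and 400 nt before the last junction. ENSMUST00000172883 skips exon 2, and its stop lies 147 nt before the last junction. The junctions that tell these 3 RNAs apart are shown with the downstream exon in capitals, from the GENCODE transcripts:
Magohb full length, exon 1 to exon 2: agtttcggccggacgGGAAGCTTAGATATG
Magohb with the inserted exon: agtttcggccggacgCTAGCAGAATCTTAA
Magohb without exon 2: agtttcggccggacgGCCTATGTCCACAAG

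The same exon 1 end is thus followed by 3 different sequences. The stop codons, in capitals, show where each reading frame ends:
Magohb full length, last exon: attaagccaattTGAatgggatgtttt
Magohb with the inserted exon: gacgatgtctgcTAAtgaactattgaa
Magohb without exon 2: gaagagaattatTGAcgacagtgaaat

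The full-length Magohb RNA was at 4.87, 3.81, 3.99 and 4.86 CPM in FC Ctrl and 2.86, 2.73, 3.35 and 2.76 CPM in FC Upf3b-KO, with every knockout library below every Ctrl library. It fell by a log2 fold change of -0.65 (SE 0.16, adjusted p = 0.0302), a call lost without any single one of FC Ctrl replicates 1, 3 and 4 and FC Upf3b-KO replicates 1, 2 and 4 (adjusted p 0.0502 to 0.082) without the count filter (0.118) and with the replicate number as a block (0.12). In cerebellum it was at 4.54, 5.78, 4.35 and 5.06 CPM against 4.18, 2.38 and 3.2 CPM, again without overlap, with a log2 fold change of -0.60 (SE 0.24, adjusted p = 0.123). When only protein-coding transcripts were summed per gene, Magohb was called in both tissues, with log2 fold changes of -0.60 in FC (adjusted p = 0.00256) and -0.64 in cerebellum (adjusted p = 0.00717).

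The isoform with the inserted exon had higher values in Upf3b-KO. ENSMUST00000173198 held 13.2, 5.61, 7.58 and 2.72 estimated counts in FC Ctrl and 21.1, 16.7, 32.5 and 12.3 in FC Upf3b-KO, groups that overlapped in counts. In cerebellum it held 2.85, 1.27, 2.84 and 5.77 estimated counts in Ctrl and 14.9, 43.9 and 12.7 in Upf3b-KO, without overlap. Its log2 fold change was 1.47 in FC (SE 0.53, adjusted p = 0.11) and 2.71 in cerebellum (SE 0.73, adjusted p = 0.0371). It is the only EJC transcript called higher in either tissue. In cerebellum it passed the count filter through the Upf3b-KO libraries alone, the group where it was high. That call is therefore not independent of the filter. The cerebellar call was lost in 8 of 13 alternatives, among them leaving out Cere Upf3b-KO replicate 3, its highest library (log2 fold change 2.04, adjusted p = 0.185), and leaving out any other library but Cere Ctrl replicate 4 (adjusted p 0.055 to 0.0843). DESeq2 called it in FC (adjusted p = 0.0289).

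As a share of all Magohb counts, the decay-type isoforms with this exon (ENSMUST00000173198 with ENSMUST00000173332, which held counts in 1 library) made up 6.26%, 3.28%, 3.66% and 1.64% in the FC Ctrl libraries and 14.2%, 11.9%, 19.1% and 9.68% in the FC Upf3b-KO libraries. In cerebellum the shares were 1.3%, 0.591%, 1.61% and 3.68% in Ctrl and 9.2%, 21% and 7.76% in Upf3b-KO. Groups did not overlap in either tissue, and the means differed by 10 percentage points in FC (exact permutation test, two-sided p = 0.0286, adjusted p = 0.0761 over 4 such tests) and by 10.9 points in cerebellum (exact permutation test, two-sided p = 0.0571, adjusted p = 0.0761). In edgeR's test of transcript shares, adjusted over all transcripts, ENSMUST00000173198 had an adjusted p of 0.842 in FC and 0.213 in cerebellum. The permutation p-values are the smallest that 4 against 4 and 3 against 4 libraries allow. Without Cere Upf3b-KO replicate 3 the cerebellar difference was 6.68 points. A coding transcript that starts further downstream, ENSMUST00000173837, contains the same 200 nt within its first exon and held at most 9.01 counts in any library used. With it counted too, the differences were 12.2 and 11.6 points, and the groups again did not overlap (exact permutation test, two-sided p = 0.0286 and 0.0571). The shares rest on 1.27 to 43.9 counts a library, and counts of this size come from the model that divides reads among isoforms.

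**Figure D4:**
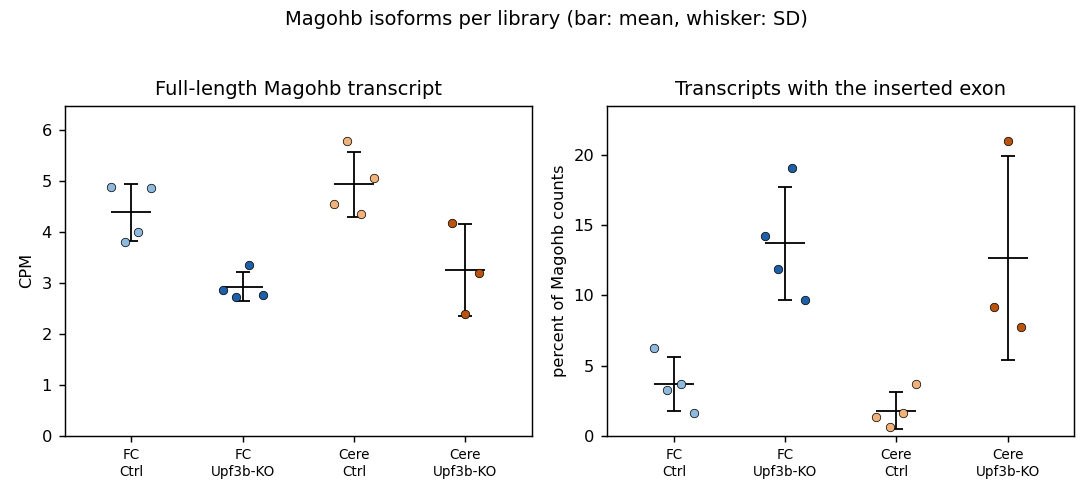
Left, CPM (linear, from 0) of the full-length Magohb transcript in every library used, by group. Right, percent of Magohb counts in the decay-type transcripts with the inserted exon. Bars give the mean and whiskers the SD, with 4 points a group and 3 in Cere Upf3b-KO. In both tissues the Upf3b-KO points lie below the Ctrl points on the left and above them on the right.

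The exon-skipping isoform ENSMUST00000172883 did not pass the test in either tissue. It was at 1.07, 1.21, 1.79 and 0.209 CPM in FC Ctrl and 1.04, 1.3, 1.01 and 0.772 CPM in FC Upf3b-KO (log2 fold change -0.12, adjusted p = 0.933), and at 0.259 to 1.57 against 0.949 to 2.25 CPM in cerebellum (log2 fold change 0.60, SE 0.68, adjusted p = 0.62). Its mean share of Magohb counts was 18.5% ± 11 against 21.9% ± 4.6 in FC and 15.2% ± 10 against 25.2% ± 11 in cerebellum, and whether it differed from the inserted-exon isoform was not tested. All 3 decay-type isoforms together made up 22.2% ± 12 (SD, n = 4) of Magohb counts in FC Ctrl and 35.6% ± 4.6 in FC Upf3b-KO (exact permutation test, two-sided p = 0.0571), and 17% ± 9.9 against 37.8% ± 18 in cerebellum (exact permutation test, two-sided p = 0.114). These groups overlapped in both tissues, and the difference of 13.4 points in FC came to 7.86 points without FC Ctrl replicate 4, and that of 20.9 points in cerebellum to 10.3 points without Cere Upf3b-KO replicate 3. The inserted exon lies inside Gm44958, an annotated processed pseudogene on the same strand (chr6:131268566-131269301), which held counts in only 1 of the libraries, at 0.0588 CPM in a Cere Ctrl library. Reads of the pseudogene and of the exon cannot be told apart by position.

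Magoh and Magohb encode nearly the same protein from separate loci, and their coding sequences of 438 and 444 nt are identical at 80.2% of positions. No stretch of 50 nt is shared between the main transcripts, so long exact matches do not mix their reads. Counting full-length transcripts per length, Magoh supplied 77.1% ± 1.1 (SD, n = 4) of the pair in FC Ctrl and 83.1% ± 2.3 in FC Upf3b-KO, with no overlap between groups (75.6% to 77.9% against 80.4% to 85.5%). In cerebellum it supplied 75.1% ± 2.7 and 80.6% ± 3.9, with overlap (72.1% to 78.5% against 76.5% to 84.3%). With every transcript counted, the share was 69.5% ± 3.5 against 71.7% ± 4.6 in FC and 69.1% ± 2.8 against 67% ± 4.4 in cerebellum, and all of these overlapped.

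Among the peripheral subunits, the main Sap18 transcript ENSMUST00000128764 was called in both tissues. It was at 74.8, 74.4, 72.7 and 72.7 CPM in FC Ctrl and 65.8, 64.8, 69.1 and 65.7 CPM in FC Upf3b-KO (log2 fold change -0.22, SE 0.027, adjusted p = 0.00102). In cerebellum it was at 82.8, 88, 93.5 and 88.5 CPM against 60, 67.1 and 64.8 CPM (log2 fold change -0.47, SE 0.054, adjusted p = 0.000883). Neither tissue showed overlap, and the cerebellar change was the lower in the interaction test (difference -0.25, adjusted p = 0.0125). Sap18 counts are uncertain in one respect: Sap18b on chromosome 8 is a copy of 789 nt with a single exon, 98.8% of whose 50-nt stretches also occur in Sap18 transcripts. Sap18b was at 48.8 ± 4.9 CPM (SD, n = 4) in FC Ctrl and 40.9 ± 2.5 CPM in FC Upf3b-KO (log2 fold change -0.33, adjusted p = 4.58e-05), and at 49.2 ± 2.2 against 42.8 ± 3.3 CPM in cerebellum (log2 fold change -0.26, adjusted p = 0.000134). With the copy added to the gene, Sap18 fell by 0.24 on the log2 scale in FC (adjusted p = 4.31e-09) and by 0.34 in cerebellum (adjusted p = 1.39e-09). The other near copies, Eif4a3l1, Eif4a3l2, Rbm8a2 and Rnps1-ps, stayed under 0.6 CPM in every library used.

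Acin1 had 26 transcripts in the count tables, the most of the 9 genes there. Its main form ENSMUST00000147714, of 4383 nt and 19 exons, was at 17.4, 12.4, 12.5 and 12.4 CPM in FC Ctrl and 15.9, 13.8, 14.4 and 16.7 CPM in FC Upf3b-KO (log2 fold change 0.09, SE 0.13, adjusted p = 0.752). In cerebellum it was at 25.7, 27.6, 23.4 and 30.7 CPM against 16, 16.7 and 22.2 CPM, without overlap (log2 fold change -0.55, SE 0.14, adjusted p = 0.0332). That call was lost without Cere Ctrl replicate 1, 2 or 4 or Cere Upf3b-KO replicate 2 or 3 (adjusted p 0.0561 to 0.119). The protein-coding Acin1 transcripts summed to 25.3 to 27.6 CPM in FC Ctrl against 29.3 to 31.8 CPM in FC Upf3b-KO, and to 47.2 to 48.6 against 37.5 to 38.8 CPM in cerebellum.

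A retained-intron transcript of Acin1, ENSMUST00000141993 (1001 nt, 3 exons), held 22.2, 11.8, 9.97 and 7.15 estimated counts in the Cere Ctrl libraries and 0 in all 3 Cere Upf3b-KO libraries (adjusted p = 0.00852). It was at least 3.75-fold lower, taking 3 counts per library as the floor, which allows up to 0.105 CPM. It is the only EJC transcript that met the stricter limits in either tissue, as 4.76% of all transcripts did in cerebellum and 3.22% in FC. It passed the count filter through the Ctrl libraries alone, the group where it was high, so the call is not independent of the filter. At an adjusted p under 0.05 the call was lost in 1 of 10 alternatives (adjusted p = 0.212). In FC it held at most 4.51 counts in any library and was not tested. Retained-intron transcripts of Acin1 together were at 0.441 to 1.43 CPM in Cere Ctrl and 0.231 to 0.628 CPM in Cere Upf3b-KO, which overlapped.

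Rbm8a is made as 2 coding RNAs of 2648 and 2651 nt that differ by 3 nt at the start of exon 3, where splicing can use either of 2 neighbouring acceptor sites. Their junctions from exon 2 to exon 3 are shown with exon 3 in capitals, since reads across this point alone separate them:
Rbm8a ENSMUST00000048915: gcggctttggctccgAGGGGTCCCGAGCGC
Rbm8a ENSMUST00000196456: gcggctttggctccgAAGAGGGGTCCCGAG

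The shorter form was at 35.1, 36.4, 32.2 and 38.9 CPM in FC Ctrl and 31, 33, 29.1 and 30.5 CPM in FC Upf3b-KO, groups that overlapped, with a log2 fold change of -0.27 (SE 0.066, adjusted p = 0.0254). The longer form was at 23.6 to 31.4 against 23.7 to 33.1 CPM (log2 fold change 0.03, SE 0.13, adjusted p = 0.929). In cerebellum neither passed, with log2 fold changes of -0.12 (adjusted p = 0.409) and 0.08 (adjusted p = 0.774). Of the 50-nt stretches of the shorter form, 98.2% also occur in the longer one, so the split between them rests on few reads. The FC call of the shorter form was lost without FC Ctrl replicate 1, 2 or 4 or FC Upf3b-KO replicate 1, 3 or 4 (adjusted p 0.053 to 0.0703), and with library totals alone (0.0713).

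Casc3 was almost wholly ENSMUST00000169695, which held 94.8% to 99.9% of its counts in the libraries used, and whose stop codon lies 42 nt before the last junction, just short of the 50 nt that define a downstream junction. It was at 57.8 to 59.7 CPM in FC Ctrl and 59.3 to 66 CPM in FC Upf3b-KO (log2 fold change 0.03, adjusted p = 0.76), and at 80 to 85.7 against 75.2 to 76 CPM in cerebellum, where it fell (log2 fold change -0.15, SE 0.03, adjusted p = 0.0097). That call was lost in 2 of 15 alternatives (adjusted p up to 0.149). The Eif4a3 transcript ENSMUST00000026667 was at 43.7 to 53.4 against 48 to 49.5 CPM in FC (adjusted p = 0.368) and fell in cerebellum from 57.9 to 62.4 CPM to 50.7 to 54.4 CPM (log2 fold change -0.18, SE 0.038, adjusted p = 0.0159). Its call was lost in 3 of 15 alternatives (adjusted p up to 0.529), among them leaving out Cere Upf3b-KO replicate 4 (adjusted p = 0.0557). Magoh had a single coding transcript, ENSMUST00000030348, with the same values as its gene to within 0.4 CPM.

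Rnps1 fell as a gene in both tissues, but edgeR called no single Rnps1 transcript for a change with genotype in either tissue. The form with the highest mean, ENSMUST00000163717, was at 66.3 ± 6.6 CPM (SD, n = 4) in FC Ctrl and 62.5 ± 7.4 CPM in FC Upf3b-KO, and at 50.9 ± 5.5 against 45.9 ± 4.1 CPM in cerebellum, with overlap in both. Between the Ctrl tissues this form was lower in cerebellum (log2 difference -0.48, SE 0.1, adjusted p = 0.00199), while the gene sum differed by -0.07. Retained-intron transcripts of Rnps1 were at 5.11 to 6.69 CPM in FC Ctrl and 3.74 to 4.58 CPM in FC Upf3b-KO, and at 5.12 to 6.59 against 3.23 to 4.95 CPM in cerebellum. These sums did not overlap in either tissue but were not tested. A further coding form, ENSMUST00000088512, held 43.6% ± 5.2 of Rnps1 counts in Cere Ctrl, close to the 46.1% ± 5.4 of ENSMUST00000163717. Pym1 had 3 transcripts, and the most abundant over all libraries, ENSMUST00000218218, was at 5.05 ± 2.2 against 4.2 ± 1.1 CPM in FC and 3.74 ± 1.5 against 3.85 ± 1.1 CPM in cerebellum. There ENSMUST00000065210 was as high, at 4.05 ± 1.2 CPM in Ctrl and 3.8 ± 2.6 CPM in Upf3b-KO, and none of these Pym1 values passed the test. Several EJC genes overlap other annotated genes, among them Casc3 with Msl1 on the same strand, Sap18 with Ska3, Pym1 with Dgka and Acin1 with 1700123O20Rik on the other, and whether counting used strand is not given in the sources used here.

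The factors that load the EJC, read it or export the mRNA with it were described through a list of 29 linked genes. In FC 19 of the 29 were called, 13 higher and 6 lower, and in cerebellum 20, of which 5 were higher and 15 lower, against the same backgrounds of 53.3% and 64.4% of all genes. Medians were 0.1403 and -0.1342 on the log2 scale, against 0.0037 and 0.0077 over all genes. With library totals alone the split was 18 higher and 3 lower in FC, and 7 higher and 11 lower in cerebellum. The interaction was called for 23 of 29, 19 of them with the lower change in cerebellum, where 48.0% of all genes were called. None met the stricter limits in either tissue. All 29 moved by less than 1.5-fold, 20 and 21 were under an unadjusted p of 0.05, and DESeq2 called 19 in each tissue at an adjusted p under 0.05.

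Among the readers of the EJC in NMD, the interaction was called for 6 of 7, where 48.0% of all genes were called. In FC 6 of 7 NMD factors rose and none fell, where 28.0% of all genes rose. Smg5, which recruits decay enzymes to phosphorylated Upf1, went from 39.9 ± 1.1 CPM (SD, n = 4) to 62.1 ± 2.2 CPM (log2 fold change 0.56, SE 0.035, adjusted p = 1.38e-11). Upf2, the bridge between Upf1 and Upf3 proteins, went from 42.2 ± 2.4 to 62.5 ± 2 CPM (log2 fold change 0.49, adjusted p = 6.52e-10), and Upf1, the helicase at the centre of NMD, from 44.5 ± 2.7 to 57.4 ± 0.79 CPM (log2 fold change 0.29, adjusted p = 1.48e-06). In cerebellum 2 of the 7 rose and 4 fell, where 33.1% of all genes rose and 31.3% fell. Upf2 went from 49.3 ± 0.8 to 64.4 ± 1.8 CPM (log2 fold change 0.34, adjusted p = 6.18e-08).

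Pnn, the alternative partner that replaces Acin1 beside Rnps1 and Sap18 in the PSAP complex, fell in cerebellum from 80.6 ± 0.89 to 64.6 ± 1.5 CPM (log2 fold change -0.37, adjusted p = 3.05e-09), and in FC its log2 fold change was -0.13 (adjusted p = 0.00257). In cerebellum the export factors Poldip3 and Thoc2 fell from 119 ± 1.8 to 89.1 ± 2.8 CPM (log2 fold change -0.46, adjusted p = 2.68e-11) and from 89 ± 2.8 to 67.3 ± 1.1 CPM (log2 fold change -0.45, adjusted p = 3.02e-10). Of the 15 TREX and export genes, 2 rose and 5 fell in cerebellum (33.1% of all genes rose and 31.3% fell), and 6 rose and 3 fell in FC (28.0% of all genes rose and 25.3% fell), where Chtop went from 148 ± 4.8 to 176 ± 3.5 CPM (log2 fold change 0.18, adjusted p = 1.15e-06). The genes of this group that rose in cerebellum were Sarnp (log2 fold change 0.30, adjusted p = 7.87e-07) and Thoc7 (0.13, adjusted p = 0.00175). The loading factors Cwc22 and Cwc27 both fell in cerebellum, with log2 fold changes of -0.27 and -0.13, had 0.02 and 0.14 in FC without passing the test, and differed in the interaction test (adjusted p = 0.00725 and 0.0242). Both scaffold proteins Srrm1 and Srrm2 fell in cerebellum (log2 fold changes -0.26 and -0.13), and Srrm2 rose in FC (0.09, adjusted p = 0.00239). Eif4a2, a translation helicase related to Eif4a3, fell in FC from 426 ± 5.2 to 397 ± 5.9 CPM (log2 fold change -0.18, adjusted p = 3.9e-09) and in cerebellum had a log2 fold change of 0.05 (adjusted p = 0.0201), while Eif4a1 fell in both tissues (-0.09 and -0.19).

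**Figure D5:**
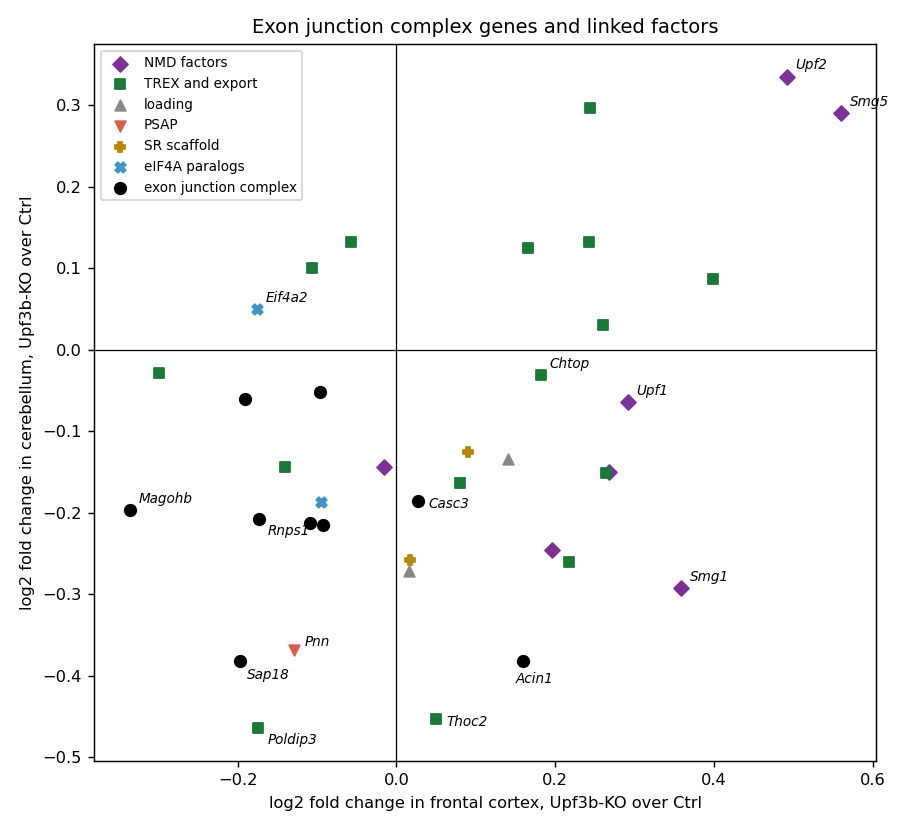
Fitted log2 fold change of Upf3b-KO over Ctrl in FC (horizontal) against cerebellum (vertical) for the 9 EJC genes (black circles) and 29 linked genes (other symbols, by role). The EJC genes lie below the horizontal zero line, Acin1 sits at 0.16 and -0.38, and Upf2 and Smg5 lie at the upper right.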

How the data were processed

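Gene expression was profiled in 16 libraries of Upf3b-KO and Ctrl brain tissue, made with rRNA depletion and a SMART-Seq kit and sequenced in pairs. The authors aligned reads to GRCm39 and used RSEM, and deposited expected counts (estimated counts, not whole numbers) per Ensembl transcript for each tissue. STAR 2.5.2b is named in the submitters' processing notes. Of 142435 transcripts, 141102 were matched to the GENCODE annotation and summed per gene, and 1333 were not used at gene level.

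Expected counts were rounded and tested with edgeR 4.0.16 in R 4.3.3 by the quasi-likelihood F test after TMM scaling, with a filter of 10 counts in enough libraries and 15 in all, and Benjamini-Hochberg adjustment over every gene or transcript tested. A feature was called at an adjusted p under 0.05. Transcript shares were tested with edgeR's diffSpliceDGE. The interaction and the Ctrl tissue contrast came from 1 fit of 15 libraries. CPM used library totals, TPM used annotated lengths, and a CPM floor of 3 counts covers counting error only. DESeq2 1.42.0, other scalings and filters, the replicate number as a block, the shallow library and each library left out were tried as alternatives. Scaling by library totals alone and a wider count of the Magohb exon were added after seeing the data. The permutation tests of Magohb isoform shares were not among the planned tests, and their adjustment does not cover the choice of isoforms. The members and gene lists were chosen with earlier results of these data known. Named transcripts were the most abundant of each gene, those with a downstream junction and those called. For each tissue, the 5 linked genes of lowest adjusted p were named, except 1 that is not reported here. Cwc22, Cwc27, Srrm1, Srrm2, Eif4a1, Sarnp, Thoc7, the longer Rbm8a transcript, ENSMUST00000088512, ENSMUST00000065210 and ENSMUST00000173837 were named beyond that rule, after their values were seen. Samples that share a replicate number did not deviate together, so no block was used. The scripts were tested on simulated data.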

Additional observations from a re-analysis of the deposited data

Results flagged for a closer look

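One transcript value stood apart in its group. The main Acin1 transcript ENSMUST00000147714 was at 17.4 CPM in FC Ctrl replicate 1, where the nearest of the other 3 libraries was at 12.5 CPM. This was 1 value among 60 groups of 4 libraries examined, and chance flags about 1 in 20 such groups.

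The change with genotype differed between the tissues for 3 EJC genes by edgeR's interaction test. The cerebellar minus FC difference in log2 fold change was -0.5512 for Acin1, -0.2226 for Casc3 and -0.1955 for Sap18. For Acin1 the change was upward in all FC Upf3b-KO libraries relative to every Ctrl library and downward in all 3 cerebellar ones.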

How the results depend on the processing

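At an adjusted p under 0.01 with more than a 2-fold change, 0 EJC genes were called in FC, cerebellum, the interaction or between Ctrl tissues, 0 linked genes in FC or cerebellum, 0 transcripts in FC and 1 in cerebellum. DESeq2 called 5 EJC transcripts in FC against 3. With the shallow library kept, 1 cerebellar transcript was called against 6. Leaving out 1 library at a time gave 1 to 2 FC transcripts and 3 to 5 cerebellar transcripts. With library totals alone, the median of all genes moved to 0.0795 in FC and 0.0577 in cerebellum on the log2 scale.

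The sign turned for 5 values that were not called. The Magoh difference between Ctrl tissues was 0.0238 with library totals alone and ran from -0.0702 to 0.0638 when single libraries were left out. With single libraries left out, the Pym1 difference between Ctrl tissues ran from -0.0211 to 0.1133, the Casc3 change in FC from -0.0068 to 0.0437 and the Pym1 change in cerebellum from -0.1899 to 0.0021. The Magohb interaction was -0.0464 with protein-coding transcripts only. Of the single-gene and single-transcript values over all alternatives, 803 kept their direction and side of the threshold, 52 lost a call, 15 gained one and 10 turned sign. The cause was not tested.

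With the replicate number as a block, 6 EJC genes were called in FC and 6 in cerebellum, and 2 transcripts were called in FC against 3 and 2 in cerebellum against 6. Samples with the same number correlated at -0.041 to 0.037 in their deviations from the group means, so the numbers were not taken as pairs. Counts near the filter limit what the transcript tests can show: the inserted-exon isoform of Magohb held 1.27 to 43.9 counts a library.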
